A study of Mus musculus with 12 samples.

Results

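The TRAV14 family is a group of 3 near-identical variable segments of the mouse T cell receptor alpha chain, TRAV14-1, TRAV14-2 and TRAV14-3. Its members were chosen by the V segment named for each productive alpha-chain contig: names of the form TRAV14-n, TRAV14D-n or TRAV14N-n were taken, the letter of the copy was dropped, and names containing DV were left out. The rule found 494 contigs in 494 cells, of 6482 productive alpha-chain contigs in 5834 cells, and 3 of the 55 TRAV segments in use. The family had been singled out with its use by genotype in these libraries already known, so the values by genotype are given as a description without a test.

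The cells were CD45+ cells, that is leukocytes, sort purified from brains of C57BL/6 mice. Receptor chains were read with a droplet assay that gives every cell a barcode and every captured transcript a unique molecular identifier (UMI). The groups were 5xFADTg parenchyma with 2 libraries, NonTg parenchyma with 2 libraries, 5xFADTg meninges with 1 library and NonTg meninges with 1 library. 5xFADTg mice carry transgenes for disease-linked forms of human amyloid precursor protein and presenilin 1 under the Thy1 promoter, which is active in neurons, and NonTg mice lack them. The labels give no age and name no animals, so replicate libraries are treated only as separate libraries, and p-values measure the spread between libraries. Meningeal and parenchymal libraries of the same genotype shared clonotypes, so the libraries may not be independent of each other, which the tests do not take into account. The depth of the libraries lay between 15827899 and 26710709 reads and between 49997 and 128700 UMIs. Of 15 pairs of libraries, 23 barcodes in all occurred in both libraries of a pair, none with the same beta chain and none with a TRAV14 chain in both. Gene expression of the same cells was not analysed here, so the kind of T cell that carried a receptor was not checked against transcripts. The median UMI count of TRAV14 alpha chains lay between 34 and 156 over the libraries. For other alpha chains it lay between 34 and 66.5. The medians parted most in the meninges, at 74 against 48.5 in 5xFADTg and 156 against 66.5 in NonTg. In the parenchyma they were 48 against 50 and 34 against 34 in 5xFADTg, and 53 against 49 and 69 against 59 in NonTg. Whether this bears on the shares by tissue was not tested.

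An alpha chain is made by joining 1 of many TRAV segments to 1 of many TRAJ segments, and the bases at the joint form the complementarity-determining region 3 (CDR3), the loop that mostly meets the peptide. The loops CDR1 and CDR2 are fixed by the TRAV segment and mostly meet the presenting molecule. Joining on 1 allele can be repeated, and each new join takes a TRAV segment upstream and a TRAJ segment downstream of those joined before. In C57BL/6 mice much of the TRAV region exists in repeated blocks, whose segments carry the letters D and N in their names.

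Germline sequences show how close the copies are. In the GENCODE M21 annotation of build GRCm38 (mm10) all copies lie on the plus strand of chromosome 14 and have 2 exons. In 5′ to 3′ order the 6 copies named in the contigs were TRAV14D-1 at chr14:52855614-52856166, TRAV14D-2 at chr14:52948568-52949169, TRAV14N-3 at chr14:53370077-53370575, TRAV14-1 at chr14:53554022-53554558, TRAV14-2 at chr14:53640701-53641225 and TRAV14-3 at chr14:53763173-53763694. The segments of the D block and the N block cannot always be told apart: over the 280 bases of the mature V part, TRAV14N-1 was identical to TRAV14D-1 and TRAV14N-2 to TRAV14D-2, and no contig was called TRAV14N-1 or TRAV14N-2. A call of TRAV14D-1 or TRAV14D-2 can therefore come from either block. The other pairs of copies differed at 5 to 20 of the 280 bases, the closest pair being TRAV14N-3 and TRAV14-3. Bases 73 to 168, which run through the CDR1 and CDR2 codons, hold 17 of the 33 positions at which the annotated copies differ, and these positions are in capitals in the following lines.
TRAV14D-1: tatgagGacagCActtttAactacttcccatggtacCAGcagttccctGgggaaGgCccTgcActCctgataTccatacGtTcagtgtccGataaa
TRAV14D-2: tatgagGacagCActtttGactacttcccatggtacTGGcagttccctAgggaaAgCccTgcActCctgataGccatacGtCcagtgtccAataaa
TRAV14N-3: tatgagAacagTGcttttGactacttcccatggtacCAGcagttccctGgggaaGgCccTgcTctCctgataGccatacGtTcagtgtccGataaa
TRAV14-1: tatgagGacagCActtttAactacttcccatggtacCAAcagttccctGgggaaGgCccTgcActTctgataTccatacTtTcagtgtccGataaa
TRAV14-2: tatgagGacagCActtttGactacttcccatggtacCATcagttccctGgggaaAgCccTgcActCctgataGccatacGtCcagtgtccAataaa
TRAV14-3: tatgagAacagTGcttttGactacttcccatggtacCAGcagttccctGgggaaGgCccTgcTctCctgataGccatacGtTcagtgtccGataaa
Within this window TRAV14N-3 and TRAV14-3 read the same. All copies end with the same 13 bases, so the CDR3 itself does not tell the members apart, and they are printed here as the start of every TRAV14 joint.
shared V end: tgtgcagcaagtg

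Of the 494 cells, 26 had no productive beta chain and 32 had 2 or more, and both kinds were left out of clonotypes. In 397 of the 436 paired cells the TRAV14 chain was the alpha chain with most UMIs, and in the other 39 it was a lesser chain. The 397 cells formed 257 clonotypes, a clonotype being a pair of alpha and beta CDR3 nucleotide sequences within a library. Its V and J names were those of its cell with most alpha-chain UMIs. In 0 TRAV14 clonotypes did the cells carry more than 1 alpha-chain V call. The 257 clonotypes were 8.27% of 3108 clonotypes, and the 397 cells were 7.62% of 5207 paired cells. TRAV14-1 had 77 clonotypes and 135 cells, TRAV14-2 had 92 clonotypes and 129 cells, and TRAV14-3 had 88 clonotypes and 133 cells. By clonotypes the family ranked 5 of the 24 TRAV families with at least 10 clonotypes. Each name containing DV was counted there as a family of its own.

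As a whole, the family's share of clonotypes overlapped between the genotypes. It made up 7.15% and 8.42% of clonotypes in 5xFADTg parenchyma, against 8.58% and 8.24% in NonTg parenchyma. The means were 7.79% ± 0.894 in 5xFADTg parenchyma and 8.41% ± 0.241 in NonTg parenchyma (SD, n = 2 each), and 5xFADTg minus NonTg came to -0.625 percentage points. In the meninges the share was 9.82% in the 5xFADTg library and 8.04% in the NonTg library. Counted by cells the parenchymal shares were 10.9% and 5.51% in 5xFADTg and 6.21% and 6.92% in NonTg. The library of 10.9% was 5xFADTg parenchyma 1, which held the largest TRAV14 clones. By either count the 5xFADTg and NonTg parenchyma libraries overlapped for the family. They did not overlap for 33.3% of the 24 TRAV families by clonotypes and for 37.5% by cells. TRAV14D-3-DV8, counted there as a family of its own, was among these by both counts.

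The members did not all run the same way by genotype. TRAV14-2 made up 2.59% and 2.68% of clonotypes in 5xFADTg parenchyma, against 2.81% and 3.56% in NonTg parenchyma. TRAV14-3 made up 2.59% and 2.30% in 5xFADTg parenchyma, against 3.63% and 3.12% in NonTg parenchyma. Both members were thus lower in each 5xFADTg than in each NonTg library, with differences of the means of -0.551 and -0.932 percentage points. The difference of TRAV14-2 rested largely on 1 library, being -0.172 without NonTg parenchyma 2 and -0.930 without NonTg parenchyma 1, and that of TRAV14-3 was -1.65 with DV names counted. TRAV14-1 made up 1.98% and 3.44% of clonotypes in 5xFADTg parenchyma, against 2.15% and 1.56% in NonTg parenchyma, and the libraries overlapped; the difference of the means, 0.859 points, was 0.127 without 5xFADTg parenchyma 2 and 1.59 without 5xFADTg parenchyma 1. So 2 of 3 members had clonotype shares that did not overlap between genotypes, as did 34.7% of all 49 TRAV segments with at least 10 clonotypes. In the meninges TRAV14-1 took 3.99% of clonotypes in the 5xFADTg library and 1.40% in the NonTg library, TRAV14-2 took 3.37% in 5xFADTg and 3.50% in NonTg, and TRAV14-3 took 2.45% in 5xFADTg and 3.15% in NonTg.

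By cells TRAV14-1 had the largest difference between genotypes of the 3 members. It took 4.73% and 2.13% of paired cells in 5xFADTg parenchyma, against 1.22% and 1.04% in NonTg parenchyma. In the meninges it took 5.95% of paired cells in the 5xFADTg library and 1.15% in the NonTg library. Of its 22 cells in the 5xFADTg meninges, 9 were 1 clone, and without that clone it took 3.60% there. TRAV14-2 took 1.91% and 1.996% of cells in 5xFADTg parenchyma, against 2.26% and 3.92% in NonTg parenchyma, and TRAV14-3 took 4.23% and 1.38% in 5xFADTg parenchyma, against 2.73% and 1.958% in NonTg parenchyma. Again 2 of 3 members did not overlap between genotypes, TRAV14-1 being higher and TRAV14-2 lower in 5xFADTg, beside 40.8% of all TRAV segments. When the largest TRAV14 clonotype of each library was left out, a step added after the values were seen, TRAV14-1 took 1.63% and 2.14% of cells in 5xFADTg parenchyma and 1.23% and 1.06% in NonTg parenchyma. The difference of the means was then 0.738 percentage points, against 2.30 points with every clonotype. Without the whole library 5xFADTg parenchyma 1 it was 0.99985 points, and without 5xFADTg parenchyma 2 it was 3.59. Without the largest clonotypes the libraries overlapped for TRAV14-2, whose difference of -1.14 points by cells was -0.306 without NonTg parenchyma 2 and -1.96 without NonTg parenchyma 1.

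**Figure D1:**
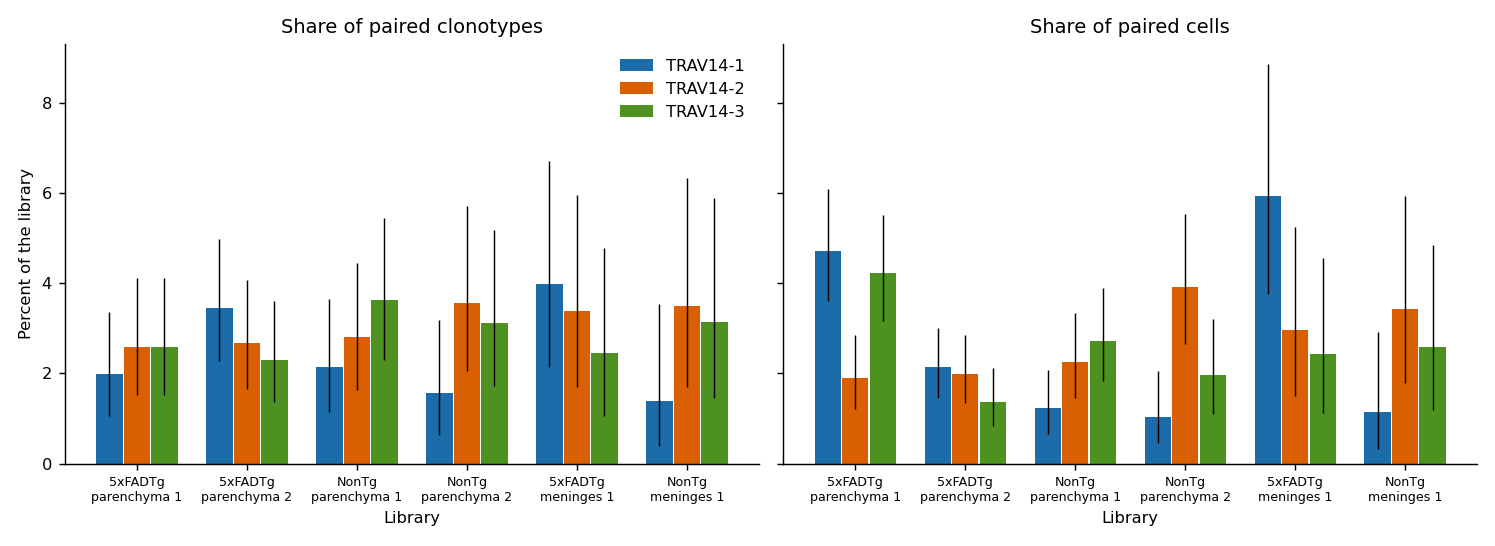
Share of each TRAV14 member in paired clonotypes (left) and paired cells (right) of each library, in percent, with exact (Clopper-Pearson) 95% binomial intervals that cover counting error only. In cells, TRAV14-1 reaches 4.73% in 5xFADTg parenchyma 1, 2.13% in 5xFADTg parenchyma 2 and 5.95% in 5xFADTg meninges, and 1.04% to 1.22% in the NonTg libraries. The same clone makes up 38 of the 57 TRAV14-1 cells in 5xFADTg parenchyma 1 and 9 of the 22 in 5xFADTg meninges.

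The member TRAV14-1 is made of the copies TRAV14D-1 and TRAV14-1, which differ at 11 of 280 bases. It is a group by name, as TRAV14D-1 differs from TRAV14D-2 and from TRAV14-3 at 9 bases each. TRAV14D-1 had 11 and 19 clonotypes in 5xFADTg parenchyma, against 9 and 4 in NonTg parenchyma, that is 1.67% and 2.42% of clonotypes in 5xFADTg, against 1.49% and 0.891% in NonTg. In the meninges it had 11 clonotypes (3.37%) in the 5xFADTg library and 3 (1.05%) in the NonTg library. The copy TRAV14-1 itself had 0.304% and 1.02% of clonotypes in 5xFADTg parenchyma (2 and 8 clonotypes), on either side of the 0.660% and 0.668% in NonTg parenchyma. TRAV14N-3 was lower in both 5xFADTg parenchyma libraries, at 1.07% and 1.40% against 1.98% and 1.78% in NonTg parenchyma, and so was TRAV14-2, at 1.37% and 1.66% against 1.98% and 1.78% in NonTg parenchyma. For these 3 of the 6 copies the parenchymal libraries did not overlap by clonotypes, beside 35.5% of the 76 TRAV copies with at least 10 clonotypes. By cells TRAV14D-1 alone of the 6 did not overlap, at 4.39% and 1.58% in 5xFADTg parenchyma, against 0.847% and 0.522% in NonTg parenchyma, beside 36.8% of the 76 copies. Of its 53 cells in 5xFADTg parenchyma 1, 38 were 1 clone. The difference of the means, 2.30 points, was 0.899 without 5xFADTg parenchyma 1 and 3.71 without 5xFADTg parenchyma 2. With the largest TRAV14 clonotype of each library left out, the shares were 1.28% and 1.59% in 5xFADTg parenchyma, against 0.852% and 0.529% in NonTg parenchyma.

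Most TRAV14 clonotypes were seen once. Of the 257, 225 had 1 cell, 13 had 2, 16 had 3 to 9 and 3 had 10 or more. The 32 expanded clonotypes, those of at least 2 cells, were 12.5% of the family, and 392 of the 2851 other clonotypes (13.7%) were expanded. Expanded clonotypes were 23.4% and 13.6% of TRAV14 clonotypes in 5xFADTg parenchyma, 7.69% and 10.8% in NonTg parenchyma, 9.38% in 5xFADTg meninges and 4.35% in NonTg meninges. Among other clonotypes of these libraries, in the same order, they were 13.3%, 17.0%, 15.7%, 14.3%, 5.10% and 10.6%. The TRAV14 share was thus higher in 2 libraries, 5xFADTg parenchyma 1 and 5xFADTg meninges, and lower in the other 4. The largest clones are shown, as the most expanded receptors of the family, by their alpha-chain CDR3, with bases that match neither the V end nor the germline TRAJ end in capitals.
TRAV14D-1/TRAJ11, 38 cells in 5xFADTg parenchyma 1: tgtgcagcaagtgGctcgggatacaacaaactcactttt
TRAV14-3/TRAJ42, 25 cells in 5xFADTg parenchyma 1: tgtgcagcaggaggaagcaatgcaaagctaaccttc
TRAV14D-2/TRAJ31, 10 cells in NonTg parenchyma 2: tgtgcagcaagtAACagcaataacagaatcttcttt
TRAV14N-3/TRAJ12, 7 cells in 5xFADTg parenchyma 1: tgtgcagcaGGGAGGGTAAtcttt
TRAV14-2/TRAJ49, 7 cells in NonTg parenchyma 1: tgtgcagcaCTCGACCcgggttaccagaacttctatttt
TRAV14D-2/TRAJ23, 6 cells in NonTg parenchyma 2: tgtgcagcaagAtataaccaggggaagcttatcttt
The clone of 38 cells, paired with TRBV29 and TRBJ1-1, was 3.15% of its library's paired cells and ranked 3 by size among all its clonotypes. The same pair was found in 9 cells of the 5xFADTg meninges library, where it was 2.43% of paired cells. The clone of 25 cells was paired with TRBJ2-7 and a beta segment that the files name TRBV12-2+TRBV13-2, and 2 cells of the 5xFADTg meninges carried it too. Its alpha joint keeps 9 bases of the V end and 27 of TRAJ42 with no base between them. The clones of 38 and 25 cells share neither J segment nor beta chain. The CDR3 of the TRAJ12 clone has 8 amino acids, the shortest in the family.

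**Figure D2:**
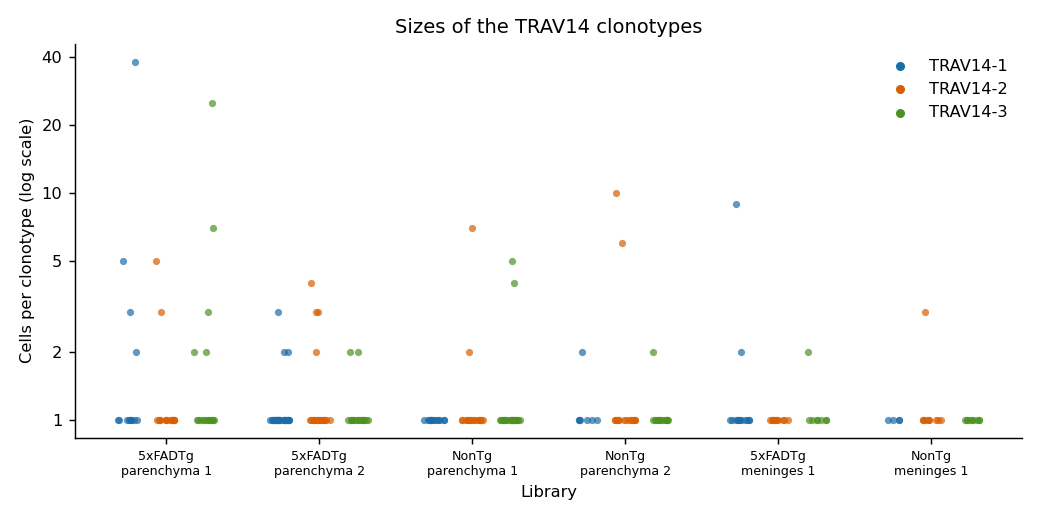
Cells per TRAV14 clonotype (log scale) in each library, each point being 1 clonotype, coloured by member, with sideways scatter only to part the points. The clonotypes of 38 and 25 cells both lie in 5xFADTg parenchyma 1, and in every library most points lie at 1 cell.

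Between expanded and 1-cell clonotypes no member differed past the threshold. In a paired edgeR quasi-likelihood fit over 125 segments, the log2 fold change of expanded over 1-cell clonotypes was -0.06 (SE 0.53) for TRAV14-1, -0.18 (SE 0.49) for TRAV14-2 and -0.14 (SE 0.50) for TRAV14-3, with Benjamini-Hochberg adjusted p of 0.972, 0.925 and 0.946. For the family, in a fit with 100 features, it was -0.14 (SE 0.25, adjusted p = 0.883). The segment fit called 2 of 125 segments (1.6%), TRAV11 and TRAJ18, both lower among expanded clonotypes, and the family fit called 2 of 100 features (2%).

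Some TRAV14 clones were found in both tissues. All 11 TRAV14 pairs seen in 2 libraries joined a meningeal and a parenchymal library of the same genotype. They were 7 of the 32 meningeal TRAV14 clonotypes in 5xFADTg (21.9%) and 4 of 23 in NonTg (17.4%), with exact 95% intervals of 9.28% to 39.97% and 4.95% to 38.8%. For other clonotypes the shares were 12.6% in 5xFADTg and 23.6% in NonTg. The pairs in most cells after the clones of 38 and 25 cells were TRAV14D-2/TRAJ23, with 3 cells in the meninges and 6 in the parenchyma of NonTg, TRAV14-2/TRAJ49, with 1 cell in the meninges and 7 in the parenchyma of NonTg, and TRAV14D-1/TRAJ31, with 2 in the meninges and 5 in the parenchyma of 5xFADTg.

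As a share of clonotypes the family averaged 8.93% ± 1.25 in the meninges (SD, n = 2) and 8.10% ± 0.645 in the parenchyma (SD, n = 4). The edgeR log2 fold change of meninges over parenchyma, with genotype as a term, was 0.15 (SE 0.20, adjusted p = 0.906) for the family. It was 0.24 (SE 0.40) for TRAV14-1, 0.26 (SE 0.31) for TRAV14-2 and -0.05 (SE 0.33) for TRAV14-3, with adjusted p of 0.933, 0.933 and 0.964. These differences were smaller than their error. The fit called 0 of 125 segments (0%) and, with families, 0 of 100 features, with 7 segments at an unadjusted p under 0.05 and 0 called by DESeq2. Without the 5xFADTg meninges library the family's value turned to -0.0678.

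The TRAJ segments joined to TRAV14 differed between the D and N copies and the copies without a letter, which lie nearer the TRAJ segments. TRAJ segments are numbered from 61 at the 5′ end downwards, so TRAJ61 to TRAJ31 is the stretch nearest the TRAV region. Of clonotypes with TRAV14D-1, 18 of 57 (31.6%) used this stretch, and 7 of 37 (18.9%) with TRAV14D-2 and 11 of 43 (25.6%) with TRAV14N-3 did. Among these D and N copies the shares did not follow the order on the chromosome. The block behind a call of TRAV14D-1 or TRAV14D-2 is not known. With copies without a letter the shares were 10 of 20 (50%) for TRAV14-1, 42 of 55 (76.4%) for TRAV14-2 and 43 of 45 (95.6%) for TRAV14-3. The exact 95% interval was 84.9% to 99.5% for TRAV14-3, the copy nearest the TRAJ segments. It was 13.5% to 41.2% for TRAV14N-3, which differs from TRAV14-3 at 5 of 280 bases. These intervals pool the libraries and cover counting error only, and a pair found in 2 libraries counts in each. The median TRAJ number was 50 with TRAV14-3 and 23 with TRAV14N-3.

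The split between copies was present in every library. Copies with no letter used TRAJ61 to TRAJ31 in 71.4% and 75.0% of clonotypes in 5xFADTg parenchyma, 84.6% and 70.6% in NonTg parenchyma, 91.7% in 5xFADTg meninges and 87.5% in NonTg meninges. The D and N copies used it in 26.9% and 31.6% in 5xFADTg parenchyma, 30.8% and 20% in NonTg parenchyma, 20% in 5xFADTg meninges and 14.3% in NonTg meninges. No library of the first set overlapped one of the second. Since this pattern was noticed in the data, it is given without a test. It was not particular to TRAV14: over 11 other TRAV families with both kinds of copy, 59.2% of clonotypes with copies without a letter and 30.0% with D or N copies used the stretch, and the first share was higher in 10 of the 11 families. The members as named here mix both kinds of copy, and their shares were 36.4% for TRAV14-1, 53.3% for TRAV14-2 and 61.4% for TRAV14-3, against 46.2% for all other clonotypes. Within libraries the family averaged 51.6% ± 8.25 and other clonotypes 46.0% ± 3.001 (SD over 6 libraries). TRAV14 minus other clonotypes came to 5.61 percentage points and was positive in 4 of 6 libraries (exact sign-flip test over libraries, two-sided p = 0.125, adjusted p = 0.375 over 6 measures). It was 2.56 points, positive in 3 of 6 libraries, without the clonotypes that join TRAV11 to TRAJ18 (exact p = 0.53125), 1.95 points with DV names counted and 3.05 points without NonTg meninges.

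**Figure D3:**
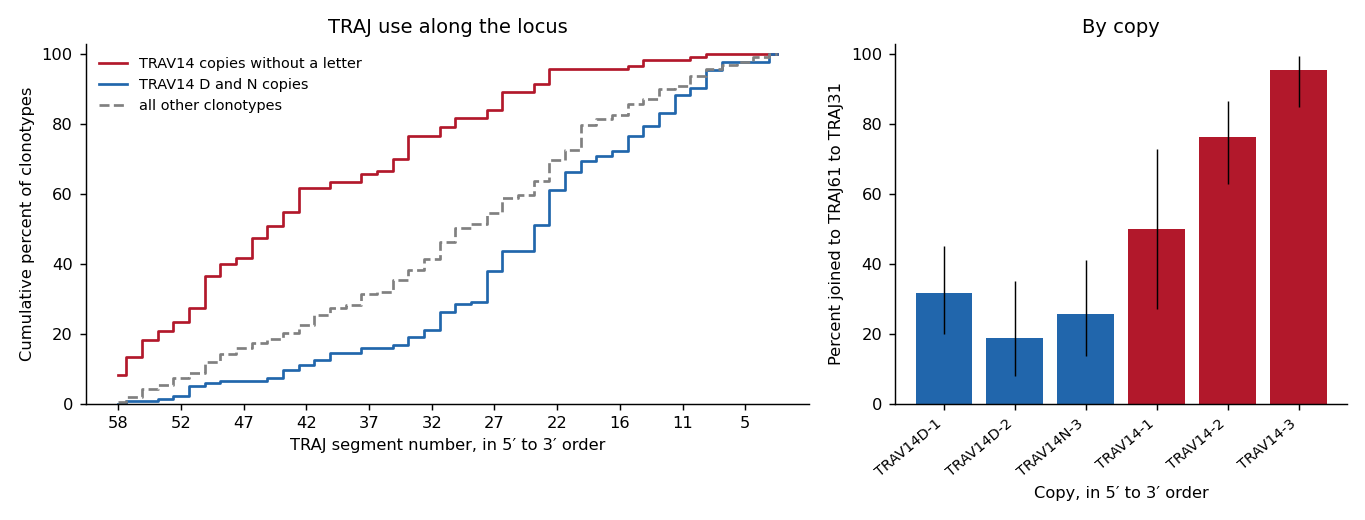
Left, cumulative percent of clonotypes along the TRAJ segments from 5′ to 3′ for TRAV14 copies without a letter, TRAV14 D and N copies and all other clonotypes; right, percent of clonotypes of each copy joined to TRAJ61 to TRAJ31, with exact 95% intervals. The copies without a letter climb first on the left, and on the right TRAV14-3 reaches 95.6% while the 3 D and N copies lie between 18.9% and 31.6%.

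The family was open to nearly all partners. It used 39 of 43 TRAJ, all 22 TRBV and all 12 TRBJ segments or labels in the clonotypes. The edgeR fit of TRAV14 against other clonotypes, paired by library, tested 76 partners and called 2 (2.63%), TRAJ58 higher and TRAJ18 lower. At an unadjusted p under 0.05 there were 8, and DESeq2 called 1.

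TRAJ58, an upstream J segment at chr14:54157280-54157342, was joined in 10 TRAV14 clonotypes (3.89%) and 16 other clonotypes (0.561%). Its share of TRAV14 clonotypes was 2.13% and 3.03% in 5xFADTg parenchyma, 5.77% and 2.70% in NonTg parenchyma, 3.13% in 5xFADTg meninges and 8.70% in NonTg meninges. Among other clonotypes of the same libraries it was 0.656%, 1.11%, 0.181%, 0.243%, 0.680% and 0. TRAJ58 was higher with TRAV14 in all 6 libraries, by a log2 fold change of 2.69 (SE 0.68, edgeR adjusted p = 0.00351). The call rests on few clonotypes: it was lost without NonTg parenchyma 1 (log2 fold change 2.29, adjusted p = 0.211) and without NonTg meninges (2.38, adjusted p = 0.0676). All 10 joints used the copies nearest the TRAJ segments, 6 with TRAV14-2 and 4 with TRAV14-3. Another family, TRAV19, had a higher share, 4 of 35 clonotypes (11.4%).

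The joints are shown because the V and J ends read alike. The germline TRAJ58 part of the CDR3 shares a run of 9 bases with the 13-base V end, tgcagcaag, the longest run of the 43 TRAJ segments; the next, of 7 bases, belong to TRAJ35, TRAJ50 and TRAJ53. Where a joint falls in this run, the V and J parts cannot be told apart, but in the joints printed here these parts do not overlap.
germline TRAJ58: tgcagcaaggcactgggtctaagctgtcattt
TRAV14-2, in 5xFADTg parenchyma 2 and again in NonTg meninges: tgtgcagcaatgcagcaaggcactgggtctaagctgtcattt
TRAV14-2, in NonTg parenchyma 1: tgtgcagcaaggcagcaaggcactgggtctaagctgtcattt
TRAV14-3, in NonTg parenchyma 1: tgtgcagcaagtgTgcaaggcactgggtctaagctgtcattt
TRAV14-3, in 5xFADTg meninges: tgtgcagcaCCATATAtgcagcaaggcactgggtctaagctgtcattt
The first of these alpha joints was paired with TRBV19 in 5xFADTg parenchyma 2, where it had 3 cells, and with TRBV13-1 in NonTg meninges.

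TRAJ18 was joined in 4 TRAV14 clonotypes (1.56%) and 202 other clonotypes (7.09%), a log2 fold change of -2.19 (SE 0.51, edgeR adjusted p = 0.00351). TRAJ18 joined to TRAV11 makes the invariant alpha chain of natural killer T cells in mice, and 165 of the other clonotypes were such joins. Without them, in a fit added after the data were seen, the value was 0.14 (adjusted p = 0.935). The call was also lost without 5xFADTg parenchyma 2 (-2.04, adjusted p = 0.0837) and with DESeq2, where the fold change stayed as large (-2.25, adjusted p = 0.172).

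No other partner passed. TRAJ11 was in 7 TRAV14 clonotypes (2.72%), against 0.947% of others, and TRAJ27 in 15 (5.84%), against 3.05%, both with adjusted p = 0.416. TRAJ40 was in 2 (0.778%), against 3.05% (adjusted p = 0.416). TRAJ4 was in 0 of 257 TRAV14 clonotypes, against 40 others (1.40%, adjusted p = 0.364). With 3 counts taken as the limit, its share with TRAV14 could be up to 1.17%. The exact 95% interval ran up to 1.43%, above the share of others, so a lower share was not established. TRAJ22, the commonest partner, had 19 clonotypes (7.39%), against 5.86% of others, and TRAJ26, TRAJ23 and TRAJ49 had 14, 13 and 12.

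No TRBV or TRBJ segment was called among the beta chains of TRAV14 clonotypes. The label TRBV12-2+TRBV13-2 had 33 clonotypes (12.8%), against 10.6% of others. TRBV3 had 28 (10.9%), against 7.997%, TRBV13-1 had 21 (8.17%), against 6.49%, and TRBV12-1 and TRBV19 had 17 each (6.61%), against 5.33% and 6.94%. TRBJ2-7 led the TRBJ segments with 46 (17.9%), against 19.7%, and TRBJ1-1, TRBJ2-1 and TRBJ2-5 followed with 28 each. The smallest adjusted p of TRBV and TRBJ segments was 0.621, which does not show that they did not differ. By member, TRBJ1 segments took 42.9% of TRAV14-1, 32.6% of TRAV14-2 and 34.1% of TRAV14-3 clonotypes, against 34.5% of others.

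**Figure D4:**
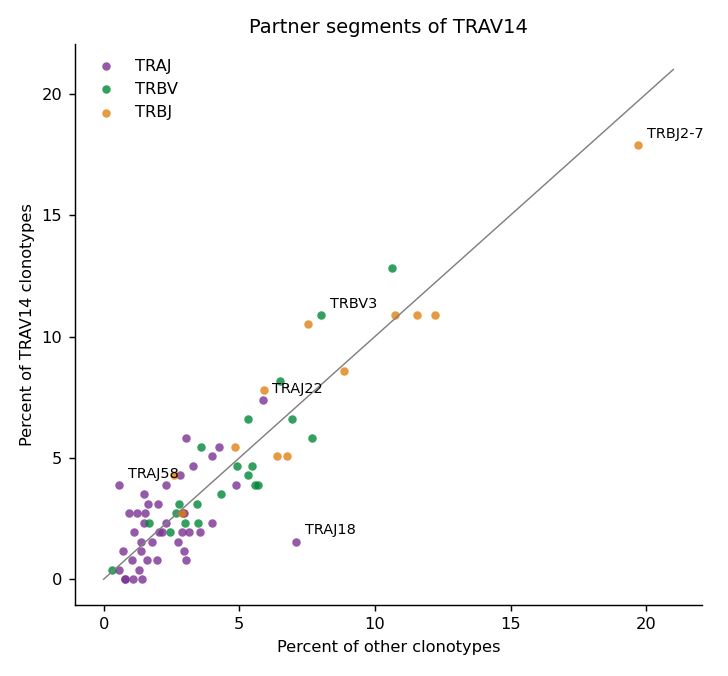
Percent of TRAV14 clonotypes (vertical axis) against percent of other clonotypes (horizontal axis) that used each of the 76 tested partner segments, with the line of equal shares. TRAJ58 lies above the line at 3.89% against 0.561%, and TRAJ18 lies far below it at 1.56% against 7.09%.

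Joints of the family kept most of the V end. The median clonotype kept 12 of the 13 V bases and held 2 bases that matched neither segment, and 46 of 257 held none. At least 12 V bases were kept in 70.1% of TRAV14-1, 47.8% of TRAV14-2 and 60.2% of TRAV14-3 clonotypes. The alpha CDR3 averaged 13.41 amino acids in TRAV14 clonotypes and 13.72 in other clonotypes over the 6 libraries, a difference of -0.311 (SD 0.187). It was shorter in 6 of 6 libraries. The exact two-sided sign-flip p was 0.03125, the smallest that 6 libraries allow, and 0.1875 after adjustment over 6 measures, so it did not pass. Without the TRAV11-TRAJ18 clonotypes the difference was -0.226, in 5 of 6 libraries (exact p = 0.0625). The other measures tested this way had unadjusted exact p from 0.40625 to 0.875: beta CDR3 length, the share with a TRBJ1 segment, the share of expanded clonotypes, and the share with an additional alpha chain.

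**Figure D5:**
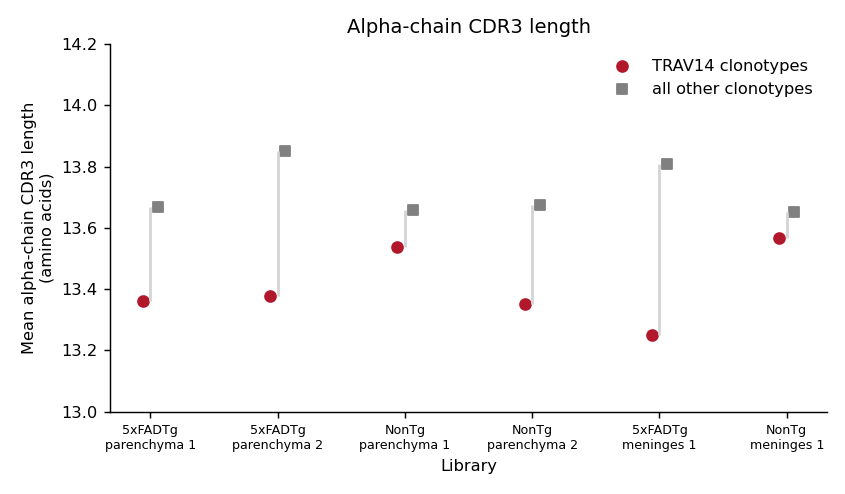
Mean alpha-chain CDR3 length in amino acids of TRAV14 clonotypes and of all other clonotypes in each library; the vertical axis does not start at 0. TRAV14 clonotypes lie lower in all 6 libraries, by the least in NonTg meninges (13.57 against 13.65) and NonTg parenchyma 1.

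Some alpha joints were found with more than 1 beta chain. Of 230 distinct TRAV14 alpha CDR3 nucleotide sequences, 13 (5.65%) were found with at least 2 beta chains. Among other clonotypes it was 83 of 2491 (3.33%). How alike the beta chains of a joint are was not tested, and some of the 13 were mostly 1 clone. A TRAJ11 joint was in 48 cells, of which 38 and 9 were the clone in 5xFADTg parenchyma 1 and 5xFADTg meninges. A TRAJ23 joint was in 10 cells, of which 6 and 3 were 1 pair in NonTg parenchyma 2 and NonTg meninges. One joint to TRAJ22, with the whole V end and no base between the segments, was found in 5 libraries, each time in 1 cell with another beta chain.
TRAV14/TRAJ22 joint: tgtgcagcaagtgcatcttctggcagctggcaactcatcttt
germline TRAJ22 part: catcttctggcagctggcaactcatcttt
Its cells were in 5xFADTg parenchyma 2, NonTg parenchyma 1, NonTg parenchyma 2, 5xFADTg meninges and NonTg meninges. It was joined to TRAV14D-2, TRAV14N-3, TRAV14N-3, TRAV14-2 and TRAV14D-1 in those libraries, and the beta segments were TRBV31, TRBV29, TRBV16, TRBV10 and TRBV13-3. The joint thus occurred under 4 copy names of all 3 members.

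Among 14 families, TRAV14 included, with at least 60 clonotypes, those whose shares over the 6 libraries were nearest to those of TRAV14, after each was set to its own mean, were TRAV7, TRAV13 and TRAV6. Their root mean square log2 differences from TRAV14 were 0.184, 0.187 and 0.188, and TRAV9 followed at 0.189, so their order is not meaningful.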

How the data were processed

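Receptor contigs of 6 libraries were analysed. Per the file headers, the deposited tables list for each contig its barcode, chain, V, J and C names, CDR3 sequences, productive status, clonotype identifier, and raw counts of reads and UMIs without normalization. Cell Ranger 6.0 and build mm10 are named in the submitters' processing notes. The authors' V calls were used as deposited. The gene expression samples were not analysed here. The members, lists and tests were chosen with earlier results of these data known.

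Cells with exactly 1 productive beta chain and at least 1 productive alpha chain were paired, taking the alpha chain with most UMIs. Clonotypes were counted within libraries, so a large clone counts once. Tables of clonotypes per segment (at least 10 clonotypes over the libraries) were tested with edgeR 4.0.16 (quasi-likelihood, Benjamini-Hochberg adjustment over the table, threshold 0.05) in R 4.3.3, with DESeq2 1.42.0 as an alternative. Library totals were the offsets. The scripts were tested on simulated counts. Values of TRAV14 and other clonotypes within libraries were compared with an exact sign-flip test over 6 libraries. Genotype was described only. Germline sequences and positions came from GENCODE M21 (GRCm38). Intervals cover counting error only. Named were the members by library and copy, called partners, the 5 TRAJ, 5 TRBV and 3 TRBJ segments with most TRAV14 clonotypes, the 3 partners of smallest p in each direction, the largest and the shared clones, and the 3 most similar families. The labels do not say what libraries of the same number share. Left out by the rule were 41 productive contigs with names containing DV and 87 nonproductive TRAV14 contigs.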

Additional observations from a re-analysis of the deposited data

Results flagged for a closer look

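One of 16 sets of values over the 4 parenchyma libraries had a library far from the rest, where chance finds about 1 in 20. Expanded clonotypes were 19.0% of TRAV14-2 clonotypes in 5xFADTg parenchyma 2 (4 of 21). They were 11.8% in 5xFADTg parenchyma 1 (2 of 17), and 11.8% and 12.5% in NonTg parenchyma (2 of 17 and 2 of 16). The value thus rests on very few clonotypes.

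Nonproductive TRAV14 contigs, which the comparisons leave out, were 7.64% and 4.65% of nonproductive alpha-chain contigs in 5xFADTg parenchyma (33 and 29 contigs), above the 3.27% and 1.30% in NonTg parenchyma (12 and 4 contigs). In 5xFADTg parenchyma up to 8 of them in 1 library belonged to 1 deposited clonotype, so cells of a clone repeat them. Their distinct CDR3 nucleotide sequences numbered 8 and 6 in 5xFADTg parenchyma, against 10 and 0 in NonTg parenchyma. By this count the genotypes overlapped. Nonproductive contigs of other TRAV families were not compared. In the meninges TRAV14 took 3.54% of nonproductive alpha-chain contigs in the 5xFADTg library and 3.65% in the NonTg library.

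The segment TRAV14D-3-DV8, left out by its name, made up 1.84% of clonotypes in 5xFADTg meninges, above 0.699% in NonTg meninges (6 and 2 clonotypes), while in the parenchyma it was 0.304% and 0.638% in 5xFADTg, against 0.825% and 1.56% in NonTg.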

How the results depend on the processing

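Counting cells in place of clonotypes gave the family a difference by genotype of 1.62 percentage points, in place of -0.625; every productive alpha chain gave -0.115, DV names counted gave -1.35, and leaving out 1 library in turn gave -1.26 (5xFADTg parenchyma 2) to 0.00767 (5xFADTg parenchyma 1). With the replicate number as a replicate block the family's log2 fold change by genotype was -0.118, against -0.107 without it, and no member changed direction (0.50, -0.27 and -0.46 with the block). The numbers mark no stated pairing. DESeq2 and the fit without TRAV11-TRAJ18 clonotypes each called 1 partner, and leaving out 1 library gave 1 to 2. No member was called between tissues or by expansion under any of the 15 alternatives for each. Signs within error turned: between tissues, TRAV14-3 with DV names counted gave 0.16, and leaving out 1 library gave -0.0678 to 0.33 for the family, -0.43 to 0.52 for TRAV14-1 and -0.115 to 0.0144 for TRAV14-3. By cells, TRAV14-3 by genotype was -0.967 without 5xFADTg parenchyma 1, against 0.459 with all libraries. By expansion, the deposited clonotype identifier gave 0.0103 for the family and 0.15 for TRAV14-3, at least 3 cells against 1 or 2 gave 0.10 for the family and 0.56 for TRAV14-2, at least 2 UMIs gave 0.0687 for TRAV14-1, and leaving out 1 library gave -0.48 to 0.0673, -0.57 to 0.29 and -0.76 to 0.0547 for the family, TRAV14-1 and TRAV14-3. The share of expanded clonotypes against others became 0.471 points with the deposited identifier and 0.636 from 3 cells, and -3.38 to 0.247 over left-out libraries; the share with a TRBJ1 segment ran from -0.152 to 4.74 and that with an additional alpha chain from -0.885 to 2.13, or -0.112 without TRAV11-TRAJ18 clonotypes. The TRAJ18 value reversed only in that fit (0.14). The cause was not tested in the other cases. Limits are the 23 to 66 TRAV14 clonotypes per library, 2 libraries per genotype in parenchyma and 1 in meninges, and unnamed animals.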
